A study of Rattus norvegicus with 72 samples.

Results

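The 9 genes described here encode voltage-gated sodium channel subunits of rat dorsal root ganglia, the clusters of sensory neuron cell bodies beside the spinal cord. Of the 14217 genes named on the array, the 9 were Scn1a, Scn3a, Scn7a, Scn8a, Scn9a, Scn10a and Scn11a, which encode pore-forming alpha subunits, and Scn2b and Scn3b, which encode accessory beta subunits. Each gene was represented by the probe set that carried its symbol alone and was brightest over all 72 arrays. All 9 passed the filter on dim probe sets that left 12276 genes for testing. Scn2b and Scn3b had a further probe set each, used as a check.

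Ganglia at lumbar levels L4 and L5 were taken from Wistar rats, 8 to 12 weeks old, after crush of the sciatic nerve, and total RNA was hybridised to Affymetrix rat expression arrays. The lesion label was sham for 21 arrays, proximal for 22 arrays (titled "Inj") and distal for 29 arrays (titled "Dis"). The labels give neither the distance of either lesion from the ganglia nor what was done to the sham animals. Tissue was collected at 8 times, early (1, 3 and 8 h), in the middle (12 and 16 h) and late (18, 24 and 28 h). A group of 1 lesion and 1 hour held 2 to 6 distal arrays, 2 or 3 proximal arrays and 1 to 3 sham arrays, and at 16 h the sham group was 1 array. The labels do not say whether arrays of a group came from separate animals or from pooled ganglia, so the p-values measure the spread between arrays, which may be technical.

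Voltage-gated sodium channels open on depolarisation and carry the rising phase of the action potential. Sensory neurons combine channels that tetrodotoxin blocks, among them the products of Scn1a, Scn3a, Scn8a and Scn9a, with the resistant channels encoded by Scn10a and Scn11a, which are typical of nociceptors, the neurons that report painful stimuli. Scn3a is the embryonic channel, low in adult ganglia and known to be expressed again after nerve injury, while Scn10a and Scn11a are known to fall after axotomy. Scn7a encodes an atypical channel linked to the sensing of sodium, present in ganglion neurons and in glia. Beta subunits anchor and tune the alpha subunits.

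The sequences below are the 250 bases before the RefSeq start of Scn3a and of Scn11a (build GRCr8). They are shown because Scn3a and Scn11a differed in opposite directions after the proximal lesion. Scn3a lies at chr3:70666199-70666448 on the minus strand and Scn11a at chr8:128444719-128444968 on the minus strand, both written 5′ to 3′ along the gene.
Scn3a: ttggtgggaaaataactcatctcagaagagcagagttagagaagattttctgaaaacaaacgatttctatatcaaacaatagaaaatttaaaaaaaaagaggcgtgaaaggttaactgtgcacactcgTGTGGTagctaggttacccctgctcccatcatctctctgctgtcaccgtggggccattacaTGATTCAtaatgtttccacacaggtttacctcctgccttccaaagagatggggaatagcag
Scn11a: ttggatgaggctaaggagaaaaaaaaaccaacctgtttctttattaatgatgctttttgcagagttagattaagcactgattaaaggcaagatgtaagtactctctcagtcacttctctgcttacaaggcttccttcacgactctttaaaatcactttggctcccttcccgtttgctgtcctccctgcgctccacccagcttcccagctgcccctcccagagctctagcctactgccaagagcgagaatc
Capitals mark the matches to 5 motifs searched on both strands, none of which overlapped another here. The Scn3a window held 1 AP-1 match (TGANTCA), 61 bases before the start, and 1 Runx match (TGTGGT), 122 bases before it. Of 33469 RefSeq windows of 250 bases, 6.34% held the AP-1 letters and 14.5% the Runx letters. The other motifs were the CRE (TGACGTCA, in 1.59% of windows), the GC box (GGGCGG, 30.5%) and the TATA box (TATAAA, 12.9%). The Scn11a, Scn9a and Scn10a windows held none of the 5, the Scn7a window held 1 GC box, the Scn8a window 6 GC boxes and the Scn2b window 1 Runx match. Windows were found for 7 of the 9 genes, and not for Scn1a and Scn3b. In the RefSeq annotation Scn1a, Scn9a and Scn7a are direct neighbours on chromosome 3, and on chromosome 8 Scn10a and Scn11a have 1 protein-coding gene between them.

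The arrays were divided into 4 sets, a number fixed beforehand, by the behaviour of dim probe sets. No label names these sets, and calling them technical is an assumption. Of the 29 distal arrays, 27 made up set A, which contained nothing else, so lesion and set cannot be told apart in most comparisons of distal arrays with sham or proximal arrays. The 2 distal arrays outside set A were array do at 1 h, in set B, and array do at 18 h, in set C. Proximal and sham arrays shared sets B, C and D, and at 1, 24 and 28 h all of them lay in set D. Sets A and B were wider in their interquartile range per array (3.51 to 3.73 and 3.60 to 3.77 log2) than C (2.73 to 3.14) and D (3.12 to 3.39). All 19 sensory neuron markers were above the dim filter, and their mean per array lay between 11.17 and 11.88 log2 over the early and late arrays. The mean of 3 skeletal muscle markers ranged from 6.06 to 11.27 in distal, from 6.10 to 9.39 in proximal and from 6.62 to 10.42 in sham arrays of the early and late hours, and its part in the results was not tested. No 2 arrays held identical values.

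After the proximal lesion the tetrodotoxin-resistant channel genes Scn10a and Scn11a were lower than in sham ganglia, averaged over 18 to 28 h. The embryonic channel gene Scn3a was higher. Over this late window (18, 24 and 28 h, 9 proximal and 9 sham arrays), Scn10a was lower by a log2 difference of -0.25 ± 0.07 (SE), Scn11a by -0.27 ± 0.09, and Scn3a was higher by 0.44 ± 0.15. In linear terms these are 1.19-fold, 1.21-fold and 1.36-fold. Scn10a, Scn11a and Scn3a are the 3 of 9 members called, that is, with a Benjamini-Hochberg adjusted p under 0.05 over all 12276 genes in limma, against 9.71% of all genes called (5.35% higher, 4.36% lower). With another quantile normalization the balance of all called genes turned from 657 higher and 535 lower to 836 and 973, and the members called were 1 higher and 3 lower, with Scn2b added. The median log2 difference was -0.10 over the 9 members and -0.02 over all genes. By hour, Scn10a stood at -0.14, -0.19 and -0.41 and Scn11a at -0.09, -0.12 and -0.61 at 18, 24 and 28 h, and both were called at 28 h alone. In whole ganglia fewer cells of a type and less RNA per cell cannot be told apart.

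**Figure D1:**
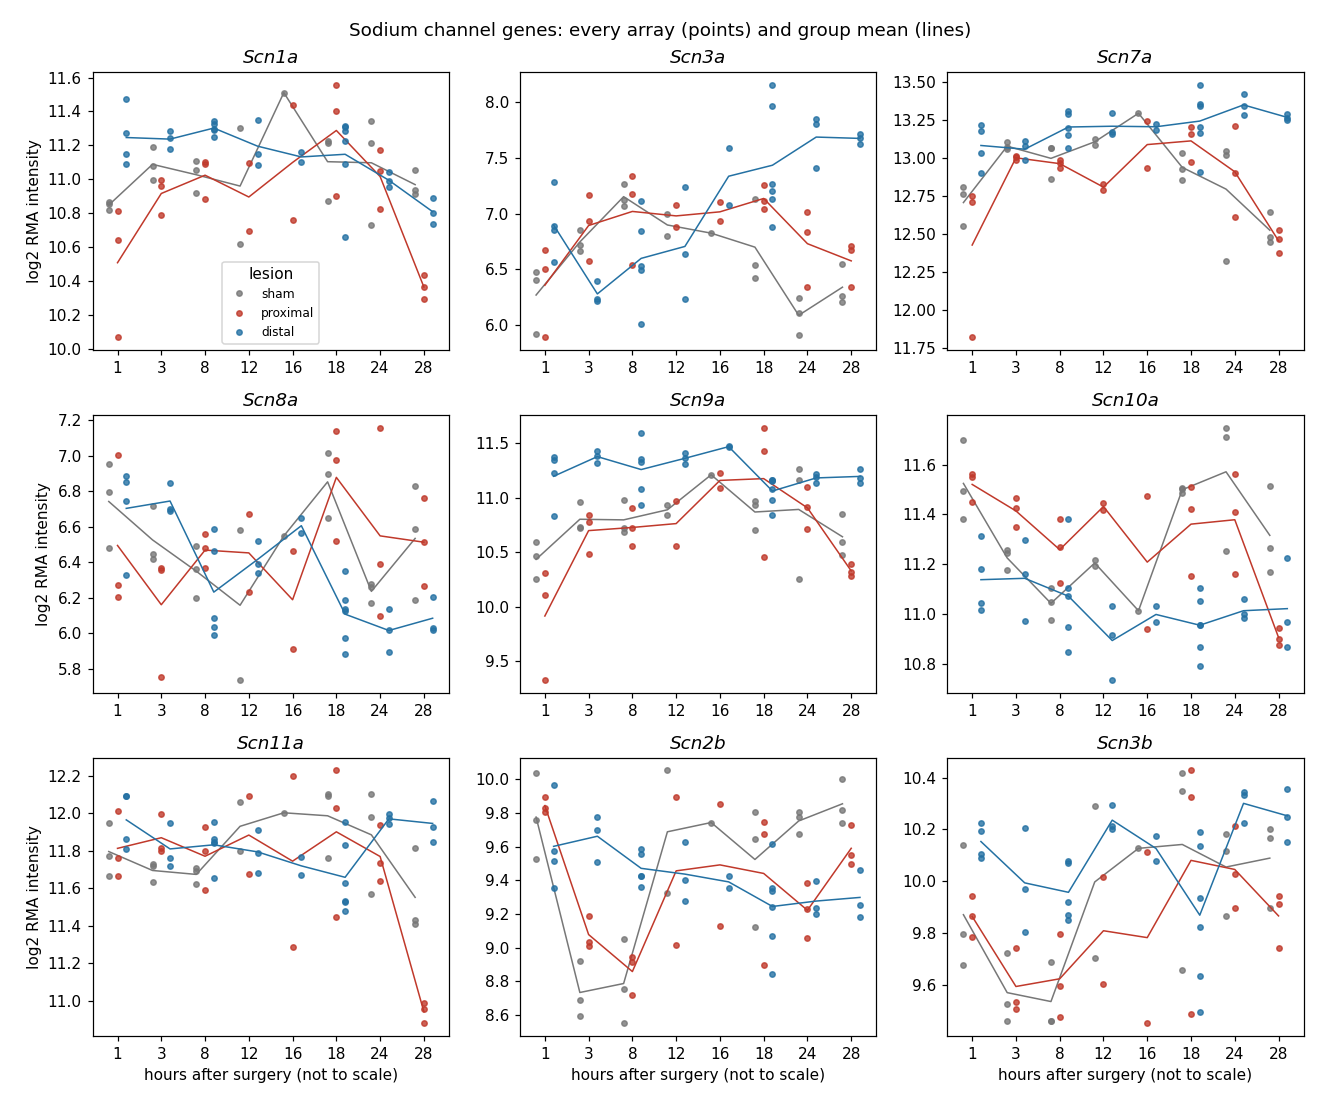
Log2 intensity of each of the 9 genes (vertical axis, 1 panel a gene) against hours after surgery (horizontal axis). Points are single arrays, lines join group means, and colours separate sham, proximal and distal arrays. Scn3a in distal ganglia climbs from a mean of 6.28 at 3 h to 7.69 at 24 h, and Scn10a and Scn11a in proximal ganglia end at 10.91 and 10.94 at 28 h.

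Scn10a encodes Nav1.8, which carries most of the current of the nociceptor's action potential. In sham ganglia its log2 intensities were 11.51, 11.50 and 11.49 at 18 h, 11.75, 11.71 and 11.26 at 24 h, and 11.52, 11.27 and 11.17 at 28 h. In proximal ganglia they were 11.42, 11.51 and 11.15 at 18 h, 11.56, 11.41 and 11.16 at 24 h, and 10.95, 10.88 and 10.90 at 28 h. The groups overlapped at 18 and 24 h and did not at 28 h, and 5 of the 9 proximal arrays lay below all 9 sham arrays. At 8 h they were also apart, in the other direction, with proximal arrays at 11.125 to 11.382 and sham arrays at 10.975 to 11.106. That difference was not called (0.22, adjusted p = 0.51 in limma). Here and below, the share of all genes whose arrays separate in such ways was not computed. The window means were 11.22 ± 0.27 (SD, n = 9) proximal and 11.46 ± 0.20 (SD, n = 9) sham, and the difference was called (adjusted p = 0.016 in limma, 95% interval -0.39 to -0.10). The call was lost when any 1 of 3 of the 18 arrays was left out: proximal 24 h c (-0.21, adjusted p = 0.055), sham 24 h a (-0.22, adjusted p = 0.051) or sham 28 h a (-0.21, adjusted p = 0.057). With all 21 sham arrays pooled over the hours the difference was -0.12 and was not called (adjusted p = 0.32).

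Scn11a encodes Nav1.9, a channel with a persistent current near the resting potential. Its sham values were 12.09, 12.10 and 11.76 at 18 h, 11.98, 12.10 and 11.57 at 24 h, and 11.81, 11.41 and 11.43 at 28 h. Its proximal values were 12.03, 12.23 and 11.45 at 18 h, 11.94, 11.73 and 11.64 at 24 h, and 10.96, 10.88 and 10.99 at 28 h. As for Scn10a, the lesion groups overlapped at 18 and 24 h and were apart at 28 h. The window means were 11.54 ± 0.50 (SD, n = 9) proximal and 11.81 ± 0.28 (SD, n = 9) sham (adjusted p = 0.043 in limma). The call was lost in 11 of the 18 fits that left out 1 array, where the difference ran over all 18 from -0.32 to -0.19. It was kept without proximal 18 h a, 18 h b or 24 h a, or without sham 18 h c, 24 h c, 28 h b or 28 h c.

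At 28 h alone, where all proximal and sham arrays lay in set D, 3 members were called, all lower in proximal ganglia, against 4.47% of all genes. The log2 difference at 28 h was -0.41 ± 0.12 (SE) for Scn10a (adjusted p = 0.041, limma), -0.61 ± 0.16 for Scn11a (adjusted p = 0.010) and -0.60 ± 0.17 for Scn1a (adjusted p = 0.019). Scn1a, which encodes the tetrodotoxin-sensitive channel Nav1.1 of larger sensory neurons, read 11.05, 10.94 and 10.91 in sham and 10.43, 10.29 and 10.36 in proximal ganglia at that hour. Each of the 3 genes had all 3 proximal arrays below all 3 sham arrays, as did Scn9a and Scn2b, which were not called. The share of all genes separated in this way was not computed, so the separation does not mark the called genes. With another quantile normalization Scn10a was not called at 28 h (-0.39, adjusted p = 0.075). Leaving out 1 of the 6 arrays ended the call for Scn10a in 5 fits (kept without sham 28 h c), for Scn1a in 4 (kept without proximal 28 h a or sham 28 h c) and for Scn11a in 2 (without proximal 28 h b or sham 28 h a). At 18 h, within set B (2 proximal and 2 sham arrays) the difference was -0.04 for Scn10a and 0.03 for Scn11a, and within set C (1 array each) it was -0.34 and -0.32. With the set as a block over the late window, Scn10a and Scn11a kept their calls (adjusted p = 0.0076 and 0.0035). Fitted on the compared arrays alone, both lost their late window calls. With every probe set tested, Scn11a lost its late window call as well. Over the settings tried, its adjusted p in limma reached 0.14.

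Scn3a, which encodes Nav1.3, was one of the dimmer members, with a mean below the median probe set. Its sham values were 6.54, 6.43 and 7.13 at 18 h, 6.24, 6.11 and 5.91 at 24 h, and 6.55, 6.21 and 6.26 at 28 h. Its proximal values were 7.11, 7.04 and 7.25 at 18 h, 7.02, 6.83 and 6.34 at 24 h, and 6.34, 6.67 and 6.71 at 28 h. At 24 h every one of the 3 proximal arrays exceeded the 3 sham arrays, and the groups overlapped at 18 and 28 h. The window means were 6.81 ± 0.33 (SD, n = 9) proximal and 6.38 ± 0.35 (SD, n = 9) sham (adjusted p = 0.046 in limma, 95% interval 0.14 to 0.73). The difference at 18 h was 0.59 within set B and 0.12 within set C, and with the set as a block the call held (adjusted p = 0.028). The call was lost in 13 of 18 fits without 1 array (0.39 to 0.51) and kept without proximal 24 h c or 28 h a, or sham 18 h c, 24 h a or 28 h a. It was also lost without the filter on dim genes (adjusted p = 0.052), without the 18 h arrays (adjusted p = 0.085), with every probe set tested (adjusted p = 0.057) and with all sham arrays pooled (0.22, adjusted p = 0.34).

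The other 6 members were not called over the late window. Scn2b, a covalently attached beta subunit, had a log2 difference of -0.29 ± 0.11 (SE), with an adjusted p of 0.10 in limma and a 95% interval of -0.52 to -0.06. Its sham values were 9.78, 9.81 and 9.67 at 24 h and 9.74, 10.003 and 9.82 at 28 h, against proximal values of 9.23, 9.38 and 9.06 and of 9.73, 9.50 and 9.55. The groups were apart at each of these hours, and 5 of the 6 proximal arrays lay below all 6 sham arrays. The share of all genes separated in this way was not computed. The dimmer Scn2b probe set, below the filter level, stood at -0.03 over the window and at -0.0034 at 28 h. Without sham 18 h c the difference of the brighter one was -0.36 and was called (adjusted p = 0.033). With the technical set as a block it was called as well (-0.29, adjusted p = 0.0011). Scn1a had a difference of -0.17 (interval -0.36 to 0.03), and without the 18 h arrays it was -0.34 and called (adjusted p = 0.030). Scn9a, which encodes Nav1.7, the channel that amplifies small depolarisations in nociceptors, stood at 0.00 (interval -0.23 to 0.24). Scn8a, which encodes the nodal channel Nav1.6, stood at 0.11 (-0.14 to 0.35), Scn7a at 0.07 (-0.09 to 0.24) and Scn3b at -0.10 (-0.31 to 0.11). These intervals leave room for a difference of the size seen for Scn10a in Scn2b, Scn1a and Scn3b, and in the opposite direction in Scn8a.

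**Figure D2:**
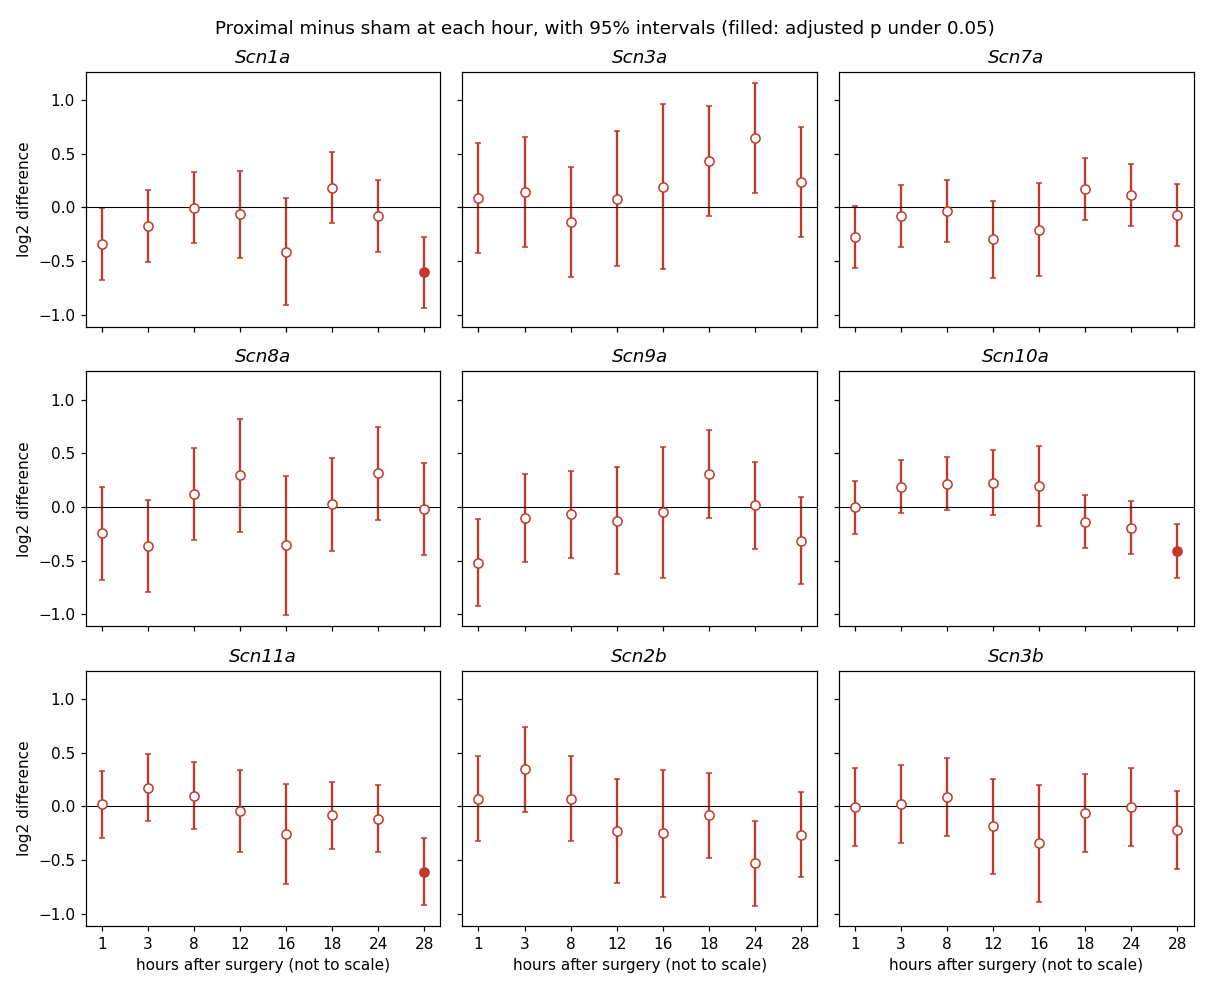
Log2 difference between proximal and sham ganglia (vertical axis) at each hour (horizontal axis) for the 9 genes, with 95% intervals from the fit. Filled points are called at an adjusted p under 0.05. Filled points appear at 28 h alone, for Scn10a, Scn11a and Scn1a, all below 0.

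Earlier hours gave no called member. In limma 0 of 9 members were called over the early window (1, 3 and 8 h, 9 arrays a group, 0.13% of all genes called) and 0 of 9 over the middle window (12 and 16 h, 4 proximal and 3 sham arrays, 0.114%). No member had an unadjusted p under 0.05 in either. At single hours no member was called from 1 to 24 h, where the share of all genes called was 0% at 1 h and 3 h, 1.75% at 8 h, 0.0326% at 12 h, 0.0489% at 16 h, 1.51% at 18 h and 1.21% at 24 h. An unadjusted p under 0.05 was reached by 2 members at 1 h (Scn9a -0.52, Scn1a -0.34) and by 2 at 24 h (Scn2b -0.53, Scn3a 0.64). By sign alone, Scn3a was higher in proximal ganglia at 7 of 8 hours and Scn1a lower at 7 of 8, with -0.0026 at 8 h. Lower values were found for Scn7a, Scn9a and Scn3b at 6 hours, Scn11a and Scn2b at 5, and Scn8a and Scn10a at 4. The share of all genes with such counts was not computed.

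Scn10a moved between the windows differently in proximal and in sham ganglia. The change from the early to the late window, proximal minus sham, was -0.38 ± 0.10 (SE) for Scn10a (adjusted p = 0.011 in limma, 95% interval -0.58 to -0.18), the only 1 of 9 members called, against 8.67% of all genes. Its mean went from 11.40 ± 0.14 to 11.22 ± 0.27 in proximal ganglia and from 11.26 ± 0.23 to 11.46 ± 0.20 in sham ganglia (SD, n = 9 each). The call held in all 36 fits that left out 1 array. Scn2b (-0.45 ± 0.16, adjusted p = 0.066), Scn11a (-0.37 ± 0.13, adjusted p = 0.059) and Scn3a (0.40 ± 0.21, adjusted p = 0.25) did not pass. With another quantile normalization 3 members were called, all negative: Scn10a (-0.36), Scn11a (-0.33) and Scn2b (-0.41).

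Markers of nociceptors and of macrophages moved over the same late arrays. Of 10 nociceptor markers tested, 4 were lower in proximal ganglia and none higher: Trpv1 (-0.40), Gfra2 (-0.42), Grik1 (-0.71) and Prdm12 (-0.50). Of all genes, 5.35% were called higher and 4.36% lower in this comparison. Their mean per array ran from 10.33 to 10.65 in proximal and from 10.54 to 10.75 in sham ganglia. Of 11 macrophage markers 5 were higher (Aif1 0.85, Fcer1g 0.73, C1qa 0.62, Tyrobp 0.60 and C1qb 0.52), and the mean of all 11 per array ran from 7.50 to 8.33 in proximal and from 7.06 to 7.73 in sham ganglia. At 28 h the nociceptor means were 10.33 to 10.38 in proximal and 10.56 to 10.74 in sham ganglia, and the macrophage means 7.78 to 8.33 and 7.36 to 7.47. This was not particular to these lists. Also lower in proximal ganglia were the large-diameter means (9.82 to 9.94 against 10.06 to 10.10) and the spinal cord means (8.32 to 8.50 against 8.61 to 8.72). Erythrocyte means were higher (9.61 to 9.95 against 9.22 to 9.54). Sensory neuron means met at 11.37 (11.31 to 11.37 against 11.37 to 11.56), and those of the remaining lists overlapped. Of 19 sensory neuron markers 1 was higher (Gap43, 0.21) and 2 lower (Rbfox3, -0.65, and Prdm12), and of 8 markers of large-diameter neurons 1 was lower (Kcns1, -0.53). Prdm12 counts in both the nociceptor and the sensory neuron list. The sensory neuron and large-diameter counts lie near the share of all genes called (9.71%), so they are no result about those lists. No tested marker of Schwann cells (7), satellite glia (6), fibroblasts (7), endothelium (5), erythrocytes (2), skeletal muscle (3) or spinal cord (2) was called. The part of these markers in the differences of the sodium channel genes was not tested.

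In distal ganglia Scn3a rose and Scn8a, Scn1a and Scn2b fell from the early to the late window. Between the early and late windows (12 distal arrays each) the log2 change was 1.01 ± 0.13 (SE) for Scn3a, a 2.01-fold rise (adjusted p = 2.91e-08, limma). Scn8a changed by -0.49 ± 0.11 (adjusted p = 5.90e-04), Scn2b by -0.30 ± 0.10 (adjusted p = 0.022) and Scn1a by -0.28 ± 0.09 (adjusted p = 0.012). These 4 of 9 members stand against 25.3% of all genes called. Scn10a (-0.12, interval -0.25 to 0.01), Scn11a (-0.01, -0.17 to 0.15), Scn9a (-0.13, -0.34 to 0.08), Scn7a (0.17, 0.02 to 0.32, adjusted p = 0.086) and Scn3b (0.11, -0.08 to 0.29) were not called.

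The group means of Scn3a in distal ganglia were 6.90, 6.28, 6.60, 6.70, 7.34, 7.43, 7.69 and 7.67 from 1 to 28 h. Its early distal arrays ran from 6.01 to 7.28 with a median of 6.55, and its late arrays from 6.88 to 8.16 with a median of 7.65. Of the 12 late arrays 8 lay above all 12 early arrays. Scn8a ran from 5.99 to 6.88 early (median 6.64) and from 5.88 to 6.35 late (median 6.08), and 3 late arrays lay below all early ones. Scn1a ran from 11.09 to 11.47 early and from 10.66 to 11.32 late, with 7 late arrays below all early ones. Scn2b ran from 9.36 to 9.97 early and from 8.85 to 9.62 late, with 9 late arrays below all early ones. The Scn3a, Scn8a and Scn1a calls held in all 24 fits without 1 array, and the Scn2b call was lost without distal 1 h do (-0.26, adjusted p = 0.053). Without both distal arrays outside set A, Scn3a changed by 1.06, Scn8a by -0.52, Scn1a by -0.26 and Scn2b by -0.24, the last no longer called (adjusted p = 0.070).

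Marker lists moved over the same distal arrays. Between the windows 5 of 10 nociceptor markers fell (Grik1 -0.89, Prdm12 -0.49, Ret -0.35, Gfra2 -0.27 and Tac1 -0.17) and none rose, and of 19 sensory neuron markers 1 rose (Gap43, 0.17) and 7 fell, among them Rbfox3 (-0.44). These counts, and those for macrophages below, stand against 25.3% of all genes called. Prdm12 counts in both lists, and the other marker lists are not described here. The nociceptor mean per array was at least 10.67 early and at most 10.65 late, so that the windows did not overlap. Of 11 macrophage markers 4 rose (Tyrobp 0.76, Fcer1g 0.66, Aif1 0.49 and Cd68 0.30) and 3 fell (Mrc1 -1.02, C1qb -0.60 and Cd163 -0.57). Their part in the changes of the sodium channel genes was not tested.

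**Figure D3:**
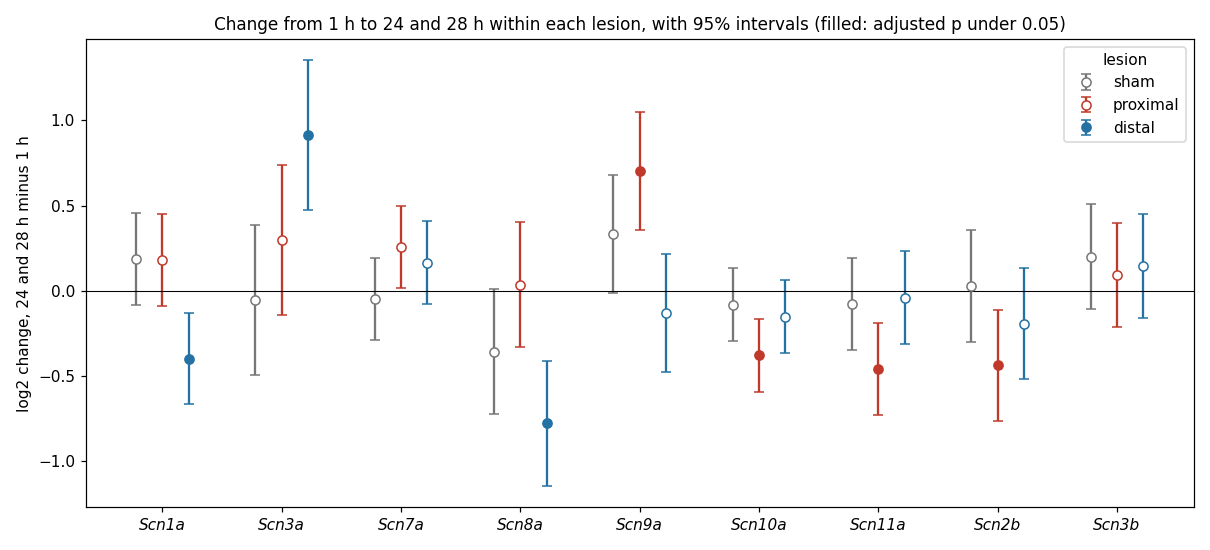
Log2 change from 1 h to 24 and 28 h (vertical axis) within sham, proximal and distal ganglia for each of the 9 genes (horizontal axis), with 95% intervals from the fit. Filled markers are called at an adjusted p under 0.05. Scn3a rose by 0.91 in distal ganglia while its sham change was -0.06.

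A comparison within 1 technical set per lesion was possible between 1 h and the 24 and 28 h arrays, since all sham and proximal arrays at these hours lay in set D. It was chosen after the data had been seen, and the distal array outside set A at 1 h, as well as that at 18 h, was left out of its fit. In sham ganglia 0 of 9 members were called in limma (2.61% of all genes called, and no member at an unadjusted p under 0.05). Sham means still moved, from 6.74 to 6.385 for Scn8a and from 10.43 to 10.77 for Scn9a. These have the direction of the distal Scn8a and the proximal Scn9a change given next. The sham mean of Scn1a went from 10.85 to 11.03, against the direction of its distal change. In proximal ganglia 4 of 9 changed (24.6% of all genes), with Scn9a higher by 0.70 ± 0.17 (SE, adjusted p = 0.0019) and Scn10a (-0.38 ± 0.11, adjusted p = 0.0069), Scn11a (-0.46 ± 0.13, adjusted p = 0.0098) and Scn2b (-0.44 ± 0.16, adjusted p = 0.041) lower. In distal ganglia 3 of 9 changed (16.4% of all genes), with Scn3a higher by 0.91 ± 0.22 (adjusted p = 0.0021) and Scn8a (-0.78 ± 0.18, adjusted p = 0.0017) and Scn1a (-0.40 ± 0.13, adjusted p = 0.032) lower.

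The distal values of Scn3a were 6.85, 6.89 and 6.57 at 1 h, 7.81, 7.85 and 7.41 at 24 h, and 7.63, 7.72 and 7.68 at 28 h. All 6 late values lay above the 1 h values, and above all 6 sham and all 6 proximal values of 24 and 28 h. The separation between lesions was not particular to Scn3a. Distal Scn7a values of these hours also lay above all sham and proximal values, Scn9a above all proximal and Scn2b below all sham values. Lesion and set cannot be told apart in this, and the share of all genes so separated was not computed. Scn8a in distal ganglia read 6.88, 6.75 and 6.85 at 1 h, then 6.02, 6.14 and 5.89 at 24 h and 6.02, 6.20 and 6.03 at 28 h, with no overlap. Scn1a read 11.47, 11.27 and 11.15 at 1 h and 10.73 to 11.04 at the later hours, also with no overlap. Scn9a in proximal ganglia read 9.32, 10.31 and 10.11 at 1 h, with array a below both others, and 10.28 to 11.10 later. Without proximal 1 h a the Scn9a change was 0.41 and was not called (adjusted p = 0.13).

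The difference in this change between lesions was called for Scn3a in distal against sham ganglia (0.97 ± 0.31 SE, adjusted p = 0.049 in limma, 1 of 9 members against 5.9% of all genes). Distal changes lie in set A and the others in set D, whose interquartile ranges per array differ (3.51 to 3.73 against 3.12 to 3.39 log2). The part of the set in the size of a change was not tested. Distal against proximal, 3 of 9 were called, all negative (10.8% of all genes): Scn9a (-0.83 ± 0.24, adjusted p = 0.021), Scn8a (-0.81 ± 0.26, adjusted p = 0.033) and Scn1a (-0.58 ± 0.19, adjusted p = 0.038). Proximal against sham, 0 of 9 were called (1.66% of all genes), and 1 had an unadjusted p under 0.05 (Scn2b, -0.47). The Scn3a difference lost its call in 15 of 18 fits without 1 array. The Scn9a difference lost it without distal 1 h b (-0.80, adjusted p = 0.058) or proximal 1 h a (-0.54, adjusted p = 0.20), Scn1a in 9 of 18 fits (-0.36 without proximal 1 h a) and Scn8a in 8 of 18. With the distal arrays outside set A kept in, none of these 4 differences was called. With another quantile normalization Scn3a against sham (0.86, adjusted p = 0.063) and Scn8a against proximal (-0.75, adjusted p = 0.056) were not called, and Scn1a against sham was (-0.60, adjusted p = 0.0038).

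Direct comparisons of distal arrays with the others are given as values, because lesion and set cannot be told apart in them. Over the late window 6 of 9 members were called against sham (61.8% of all genes): Scn3a 1.22, Scn7a 0.53 and Scn9a 0.35 higher, and Scn8a -0.47, Scn10a -0.46 and Scn2b -0.44 lower. Against proximal ganglia 6 of 9 were called (53.4%): Scn3a 0.78, Scn7a 0.46, Scn9a 0.34 and Scn11a 0.32 higher, and Scn8a -0.58 and Scn10a -0.22 lower. These comparisons and the proximal comparison share sham or proximal arrays. In the pair of arrays at 18 h that shared set C, distal minus sham was 0.14 for Scn3a, -0.68 for Scn8a, -0.38 for Scn10a, 0.46 for Scn9a, 0.05 for Scn7a and -0.28 for Scn2b. Over the early window 5 of 9 were called against sham, all higher (68.7%; median of all genes 0.19): Scn9a 0.60, Scn2b 0.48, Scn3b 0.38, Scn1a 0.27 and Scn7a 0.19. With another quantile normalization that median was 0.00, and Scn9a (0.34) and Scn2b (0.17) were called higher and Scn10a (-0.39) lower. Leaving out the 18 h arrays ended the late calls of Scn8a against sham (-0.33, adjusted p = 0.056) and Scn10a against proximal (-0.12, adjusted p = 0.23), and leaving out proximal 18 h c ended that of Scn9a against proximal (0.22, adjusted p = 0.066).

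Some members also differed between the early and late sham arrays. Between the early and late sham windows 3 of 9 members were called, all higher (40.3% of all genes, median of all genes 0.15): Scn2b by 0.61 ± 0.11 (SE, adjusted p = 3.95e-05, limma), Scn3b by 0.44 ± 0.10 (adjusted p = 8.28e-04) and Scn10a by 0.20 ± 0.07 (adjusted p = 0.023). The Scn2b group means in sham were 9.78, 8.73, 8.79, 9.69, 9.74, 9.52, 9.75 and 9.86 from 1 to 28 h, low at 3 and 8 h, the hours at which the sham arrays lay in set C. The Scn3a sham means were highest at 8 h (7.15) and lowest at 24 h (6.09). At 12 h the Scn2b value was 10.05 in set B and 9.33 in set C (1 array each), and at 18 h it was 9.81 and 9.65 in set B and 9.12 in set C. Between 1 h and the 24 and 28 h arrays, all in set D, the sham change was 0.03 for Scn2b (95% interval -0.30 to 0.35) and 0.20 for Scn3b (-0.11 to 0.51), neither called. Hour and set are thus separable only in part, since all sham arrays at 3 and 8 h lay in set C. With another quantile normalization Scn2b (0.43) and Scn3b (0.26) were called higher, Scn7a (-0.22) was called lower and Scn10a (0.06) was not called. The dimmer Scn2b probe set, below the filter level, stood at -0.10.

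Over all 24 groups the means of Scn3a spanned 1.60 log2 units with a pooled SD within groups of 0.32, those of Scn9a 1.56 (SD 0.25), Scn1a 1.15 (0.21), Scn2b 1.12 (0.24), Scn11a 1.06 (0.19), Scn7a 0.92 (0.18), Scn8a 0.86 (0.27), Scn3b 0.76 (0.22) and Scn10a 0.68 (0.15). In the order of the 24 means of a gene, neighbours differed by less than the pooled SD for all 23 steps in 6 genes. The exceptions were 2 steps of Scn1a, 1 of Scn11a and 1 of Scn9a. The levels of different genes come from different probes and were not compared.

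Of 32 tested genes that work with these channels, 1 differed between proximal and sham ganglia late. A list of 43 other sodium channel subunits, channel partners, genes of the node of Ranvier and initial segment, and sodium pump genes had 34 genes on the array and 32 tested. Over the late window 1 of the 32 was higher in proximal than in sham ganglia and none was lower, where 9.71% of all genes were called, with a median log2 difference of -0.01 against -0.02 over all genes. The 1 gene was Atp1b2, a beta subunit of the sodium pump that is prominent in glia, at 0.33 ± 0.09 (SE, adjusted p = 0.011, limma). None of the 3 other subunits passed: Scn2a stood at -0.19, Scn4b at -0.02 and the leak channel gene Nalcn at 0.04. None of 12 partners and trafficking genes and none of 10 node genes passed.

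In distal ganglia 2 of the 32 rose and 4 fell between the windows, a comparison in which 25.3% of all genes were called, so the count is no result about the list. Atp1b2 rose by 0.98 ± 0.08 (SE, adjusted p = 3.17e-14, limma) and Fxyd1, a regulator of the pump, by 0.56. Cntn1 (-0.87) and Cntn2 (-0.70), adhesion proteins of the node region, fell, as did Dpysl2 (-0.21) and Scn4b (-0.18). Set against sham late, distal ganglia read -1.08 for Cntn2 (adjusted p = 1.54e-10) and -0.78 for Cntnap1 (adjusted p = 3.59e-09), which anchors the junction beside the node. Set against proximal late, they read -0.33 for Atp1b1 (adjusted p = 1.03e-08). In these last comparisons lesion and set cannot be told apart. In the late minus early change, proximal minus sham, 2 of the 32 were lower, the pump regulators Fxyd2 (-0.29) and Fxyd7 (-0.42), where 8.67% of all genes were called.

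Scn10a and Scn11a varied together from array to array. Over the 43 sham and proximal arrays, with log2 values centred within each technical set, their Pearson correlation was 0.86, the highest of the 36 pairs of members (range -0.31 to 0.86, median 0.15). It was 0.81 over the 21 sham arrays, 0.93 over the 22 proximal arrays and 0.78 without the 3 proximal arrays at 28 h. The next pairs were Scn7a with Scn9a (0.77), Scn1a with Scn7a (0.76) and Scn1a with Scn9a (0.75), which fell to 0.66, 0.68 and 0.67 without proximal 1 h a. Scn3a and Scn10a stood at -0.20. All these values describe arrays that share hour, surgery and preparation, and no p is attached to them.

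**Figure D4:**
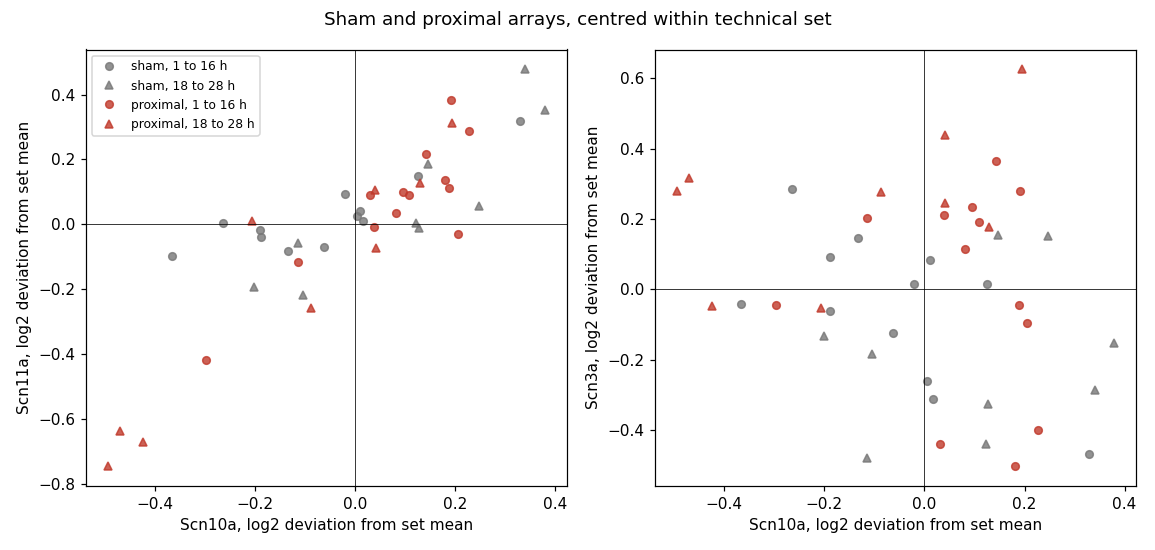
Deviations of log2 intensity from the mean of the array's technical set for 43 sham and proximal arrays, with Scn10a on the horizontal axis and Scn11a (left) or Scn3a (right) on the vertical axis. Points follow a line for Scn11a (r = 0.86) and scatter for Scn3a (r = -0.20).

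Among all tested genes, the 3 most like Scn10a by this measure were Scn11a (0.86), Nfasc (0.85) and Atp2b2 (0.84). Those most like Scn11a were Scn10a (0.86), Luzp1 (0.84) and Kndc1 (0.83). Those most like Scn3a were Nrip1 (0.68), Chd1 (0.65) and Hs2st1 (0.65).

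The further probe sets gave other values for the beta subunits in several comparisons. The dimmer Scn2b probe set had a mean of 4.56 log2, below the filter level of 5.46. It read -0.03 for proximal against sham late, -0.14 for distal against sham early, where the brighter one read 0.48, and -0.08 for the proximal change from 1 h to 24 and 28 h, where the brighter one read -0.44. In distal ganglia it fell by 0.52 between the windows, where the brighter one fell by 0.30. The dimmer Scn3b probe set, with a mean of 8.85 log2, read -0.06 for proximal against sham late and 0.50 for distal against sham early, against -0.10 and 0.38 for the brighter one. It read 0.45 for distal against sham late and 0.51 for distal against proximal late, against 0.05 and 0.14. From 1 h to 24 and 28 h it changed by 0.52 in proximal and 0.47 in sham ganglia, against 0.09 and 0.20. For the dimmer Scn3b probe set the unadjusted p in limma was 4.7e-04 for distal against sham late and 1.0e-04 for distal against proximal late. It was 0.0075 for the proximal change, 0.017 for the sham change and 0.65 for proximal against sham late. The missing Scn3b calls in the late distal comparisons and the proximal change may thus depend on the probe set chosen. For proximal against sham late both probe sets lay near 0.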

How the data were processed

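The files hold log2 intensities, 1 value per probe set and array, which the authors computed with RMA, per the submitters' processing notes. The version of RMA, any joint normalization of the 72 arrays and any pooling of RNA are not given in the sources used here. Arrays have no read depth, and their number sets the precision.

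Of 31099 probe sets, 57 controls were left out, and 20826 with 1 gene symbol in the platform annotation were named (436 had several, 9780 none). The brightest probe set stood for each of 14217 genes, and a filter at the 25th percentile of probe set means (5.46 log2) left 12276 genes. Limma 3.58.1 in R 4.3.3 (data.table, version 1.17.8) fitted 1 mean per lesion and hour over the 72 arrays, which left 48 residual degrees of freedom, and moderated variances with a trend in mean level. A group of 1 array was assumed to vary like the others. Window differences weight hours equally, so they can differ slightly from differences of window means. P-values are two-sided, Benjamini-Hochberg adjusted over all genes within a comparison, and called under 0.05. The model was tested on simulated data. The change from 1 h to 24 and 28 h was fitted without the 2 distal arrays outside set A. Technical sets came from Ward clustering of arrays on probe sets below the filter, cut at a fixed number of 4.

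All 9 members were named whatever their values, with the 4 partner genes of smallest p and the 3 genes most like each member called in the late proximal comparison. Genes behind most counts of 5 or fewer are also named, chosen after their values were seen. The members and lists were chosen with earlier results of these data known. Promoter windows are RefSeq sequences of build GRCr8. The array's own build is not given here, and Scn10a's start lies 451 bases inside the gene's outer end, so its window is not printed. Figures were drawn with Python 3.11.15 and matplotlib 3.10.9. Alternatives were other filters, another quantile normalization, array weights, blocks for array letter and technical set, pooled sham arrays, fits without some hours or arrays, every probe set, and leaving out each array in turn.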

Additional observations from a re-analysis of the deposited data

Results flagged for a closer look

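In distal ganglia at 18 h, array do had a Scn1a log2 intensity of 10.66, far below the other 5 arrays of its group (11.09 to 11.32). Of 27 tests by Dixon's criterion, 1 for each of the 9 genes at 1, 8 and 18 h in distal ganglia, it was the only one past the limit, and chance marks about 1 in 20. The same array is the distal array of set C. The early to late change of Scn10a differed between proximal and sham ganglia by -0.38, lower in proximal. From 1 h to 24 and 28 h, the change of Scn3a differed between distal and sham ganglia by 0.97. Between distal and proximal ganglia the changes over the same hours differed by -0.58 for Scn1a, by -0.81 for Scn8a and by -0.83 for Scn9a. No explanation was tested for any of these values.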

How the results depend on the processing

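Limits come first. Signal over background is not given for these arrays, and Scn3a and Scn8a lay below the 50th percentile of probe sets, so filtering there (7.01 log2) removed both. Distal comparisons with sham or proximal arrays had no fixed-block fit for the technical set, nor had the early to late change in sham, and the replicate block gave no fit for changes within a lesion. Estimation of array weights stopped before it converged. Same-lettered proximal and sham arrays deviated together (every correlation above 0.1) at 2 of 6 hours with 3 pairs, and the meaning of a letter is unstated. The cause of the moves below was not tested unless the setting itself removes genes or arrays.

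For proximal against sham late, the 3 members called became 5 with array weights, and 1 with sham pooled, with the compared arrays alone and with every probe set. Early, array weights gave 2 in place of 0. In the middle window the replicate block gave 3 in place of 0. At single hours the 3 calls became 11 with array weights, 6 with the replicate block and 7 with sham pooled. The 1 call in the late minus early change became 3 with the other quantile normalization, the replicate block, the set block, and without 18 h or without 12 and 16 h, 5 with array weights, and 2 without arrays whose letter carries an o, without the distal arrays outside set A and with the compared arrays alone. The 4 distal early to late calls became 2 at the 50th percentile and 8 with array weights, the 3 in sham 8 with array weights, and the 5 for distal against sham early 3 with the other quantile normalization. From 1 h to 24 and 28 h, the 3 distal calls became 1 at the 50th percentile and 5 with array weights. The 3 for distal against proximal became 5 with array weights and 0 with the distal arrays outside set A kept. The 1 for distal against sham became 0 with no filter, at the 50th percentile, with those arrays kept and with every probe set, and 2 with array weights, either block, without 18 h, without 12 and 16 h and with the compared arrays alone. The 0 for proximal against sham became 1 with the set block.

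Signs turned for values near 0 in proximal against sham late: Scn3b 0.10 and Scn7a -0.061 with sham pooled, and Scn9a -0.0077 with the other normalization and -0.15 without 18 h. The other Scn2b probe set gave -0.14 for distal against sham early and -0.10 for the sham change.

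Leaving out 1 array at a time gave 1 to 4 calls for proximal against sham late, 0 to 4 at single hours, 1 to 3 for the late minus early change, and, from 1 h to 24 and 28 h, 2 to 4 for proximal, 0 to 3 for distal against proximal and 0 to 1 for distal against sham. In proximal against sham late, Scn3b ran from -0.18 to 0.00041, Scn7a from -0.0062 to 0.12 and Scn9a from -0.10 to 0.12.

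Over all genes, calls moved by over 1.5 times in proximal against sham late (1192, up to 3429), early (16, up to 2087) and in the middle window (14, from 0 to 2832), in the late minus early change (1064, up to 3983), the distal early to late change (3103, up to 6564), the sham one (4947, up to 9176), and from 1 h to 24 and 28 h in sham (320, up to 842), proximal (3016, up to 4937), distal (2018, up to 5112), proximal against sham (204, up to 572), distal against sham (724, up to 1841) and distal against proximal (1331, from 805 to 3844). The other quantile normalization moved the share of higher calls from 70.8% to 48.2% for distal against sham early, from 87.5% to 72.7% for proximal against sham early, from 50% to 61.1% in the middle window, from 55.1% to 46.2% for proximal against sham late, from 52.3% to 42.6% for distal against sham late, from 53.6% to 43.8% for distal against proximal late, from 87.8% to 74.9% for the sham change, from 42.2% to 60.9% for sham from 1 h to 24 and 28 h, and over the same hours from 79.3% to 64.0% for distal against sham and from 75% to 64.9% for proximal against sham.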
